A study of Mus musculus with 60 samples.

Results

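The subject is how the first 12 h in 2i changed gene expression in Ezh2 knockout mouse embryonic stem cells compared with their wild-type parent line. Of the 60 RNA-seq libraries of the series, 12 enter this contrast, with 3 labelled as biological replicates in each of 4 groups, and every one of them was used. Of 50559 annotated genes, 15083 had enough reads to be tested. The groups were 1A wild type at 0 h, 1A wild type at 12 h, 1A EZH2 knockout at 0 h and 1A EZH2 knockout at 12 h. Both lines grew on gelatin in medium with serum and LIF, and the 0 h cells received no inhibitor. From time 0 the other cells received 2i, which is CHIR99021 at 3 µM and PD0325901 at 1 µM, renewed daily in the same medium. Groups of 3 from V19 wild type (another embryonic stem cell line) and 1A EED knockout at the same times, and from 1A wild type and 1A EZH2 knockout at 24, 48 and 96 h of 2i, serve for comparison. The knockouts are described as isogenic lines edited with Cas9 and the labels name 1 line for each gene, so loss of the gene and other traits of its line cannot be told apart. The replicates are not said to come from separate cultures, so p-values measure the spread between libraries of the same group, which may be technical. For each gene that spread was estimated over all 60 libraries together, not for each group apart. A change at 12 h is a log2 fold change against 0 h of the same line, and the difference of responses is the change in Ezh2 knockout minus the change in wild type. A positive difference can mean a larger rise, a smaller fall or a change of direction in the knockout, so the 0 h levels of both lines stand beside the values. Levels are single libraries or, with ±, the mean and SD of 3, and a range joined by a dash gives the lowest and highest of 3 libraries.

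Ezh2 is the main catalytic subunit of Polycomb repressive complex 2 (PRC2), which methylates lysine 27 of histone H3. Eed and Suz12 are the other core subunits, and the related enzyme Ezh1 can replace Ezh2 in part. In embryonic stem cells PRC2 marks many silent developmental genes. In 2i, CHIR99021 blocks GSK3 and so stabilises beta-catenin, and PD0325901 blocks MEK and so stops ERK signalling. Together they move cells from the mixed state of serum cultures towards the naive state, with loss of ERK targets and of factors of the formative and primed states that precede lineage commitment.

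The targeted gene was read first. Ezh2 (chromosome 6, 47507208 to 47572309, GRCm39) was at 217, 208 and 194 CPM (reads of a gene scaled to a common library size) in wild type at 0 h and at 226, 207 and 212 CPM at 12 h. In Ezh2 knockout it was at 16.3, 17 and 15.1 CPM at 0 h and at 15.7, 19.9 and 15 CPM at 12 h, below every wild-type library. The line difference was -3.67 ± 0.08 at 0 h (log2 ± standard error, adjusted p = 5.66e-37), and the difference of 12 h responses was 0.02 ± 0.12 (adjusted p = 0.981). Counts per gene do not show which part of the transcript was left. A gene is called where its adjusted p was under 0.05. Eed, at 0 h levels of 356 ± 23.9 CPM in wild type and 422 ± 19.5 CPM in knockout, had a difference of -0.23 ± 0.14 (adjusted p = 0.501), and Suz12, at 201 ± 14.6 CPM in wild type and 271 ± 1.73 CPM in knockout, one of 0.08 ± 0.15 (adjusted p = 0.88), and neither was called.

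The 12 libraries held 3990421 to 11065948 assigned reads, with a median of 6274366. The first principal component, with 48.9% of the variance, separated 0 h from 12 h, and the second, with 25.4%, separated the lines. Replicate 3 of Ezh2 knockout at 12 h stood apart, with 0.609% of its counts on mitochondrial genes against 0.929 to 1.34% in the other 11 libraries. By chi-square per degree of freedom, the knockout replicates at 12 h also differed more among themselves than those of the other groups, at 8.51 to 22.9 against 1.26 to 2.87. Their root mean square deviations from the group mean (log2) were 0.241, 0.171 and 0.269, against 0.198 to 0.254 in the other groups. Both measures depend on read depth, and replicates 1 and 2 of this group were the deepest of the 12 libraries, at 10558020 and 11065948 reads. The value of 22.9 was between replicates 1 and 3, and that between replicates 1 and 2 was 8.51. Replicate 3 held 6110052 reads, and the part of depth in this spread was not tested. For each gene named, calls that ended in a fit without 1 library are given beside its values. All 8 embryonic stem cell markers were detected in each group, with summed levels of 4270 to 4366 CPM in wild type and 5432 to 5770 CPM in knockout at 12 h, and of these Esrrb alone was called in the difference of responses. Of 16 fibroblast and feeder markers, 12 of them tested and summed at 51.1 to 83.3 CPM in all 12 libraries, none was called and Fap had no count in any group. Core markers of 4 other fates were not called either: 8 of primitive endoderm, summed at 419–461 CPM in knockout and 262–268 CPM in wild type at 12 h, 6 of trophoblast at 39.9–43.7 and 30.1–33.6 CPM, 3 tested of 4 of neuroectoderm at 37.5–41.7 and 27.5–29.7 CPM, and those of mesendoderm at 12.1–16.8 and 5.77–7.93 CPM, where T (brachyury) had no count. These sums were higher in knockout at 0 h already, at 597–617 and 334–357 CPM for primitive endoderm and 37.9–40.4 and 21.6–26.6 CPM for trophoblast. For neuroectoderm they were at 50.9–59.8 and 43.1–49.1 CPM at 0 h, and for mesendoderm at 9.97–15.3 and 3.55–4.74 CPM. Most of the endoderm sum was Sparc, at 245 to 557 CPM over the 12 libraries, and the next marker, Dab2, reached 20.2 CPM at most. The most abundant fibroblast markers were Fbln1, at 24 to 52.1 CPM, and Col5a1, at 8.21 to 19.05 CPM. In bulk RNA, fewer cells of a type and less RNA per cell cannot be told apart, and the part of other cells in the results was not tested.

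The responses of the lines differed in 439 of 15083 genes by edgeR's quasi-likelihood test (2.91% of genes tested), with 236 higher (1.56%) and 203 lower (1.35%) in Ezh2 knockout. The median difference over all genes was 0.0057. In wild type alone 6148 genes changed (40.8% of genes tested, 20.8% falling), and in knockout 7555 (50.1%, with 23.9% falling). At 0 h the lines differed in 3433 genes (22.8%), of which 1796 were higher (11.9%) and 1637 lower (10.9%) in knockout. These comparisons share libraries with the difference of responses. Of the 439 genes, 129 differed by at least 2-fold (0.855%), 75 higher and 54 lower, and 2218 genes (14.7%) had an unadjusted p under 0.05. The count was 285 without replicate 1 of wild type at 12 h and 524 without replicate 1 of knockout at 12 h, and 378 without its replicate 3. A set of 7 other settings of scaling, filter, test and values and 12 fits without 1 library was run for each named gene, and 39 of the 68 called genes named by rule kept their call in all 19.

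**Figure D1:**
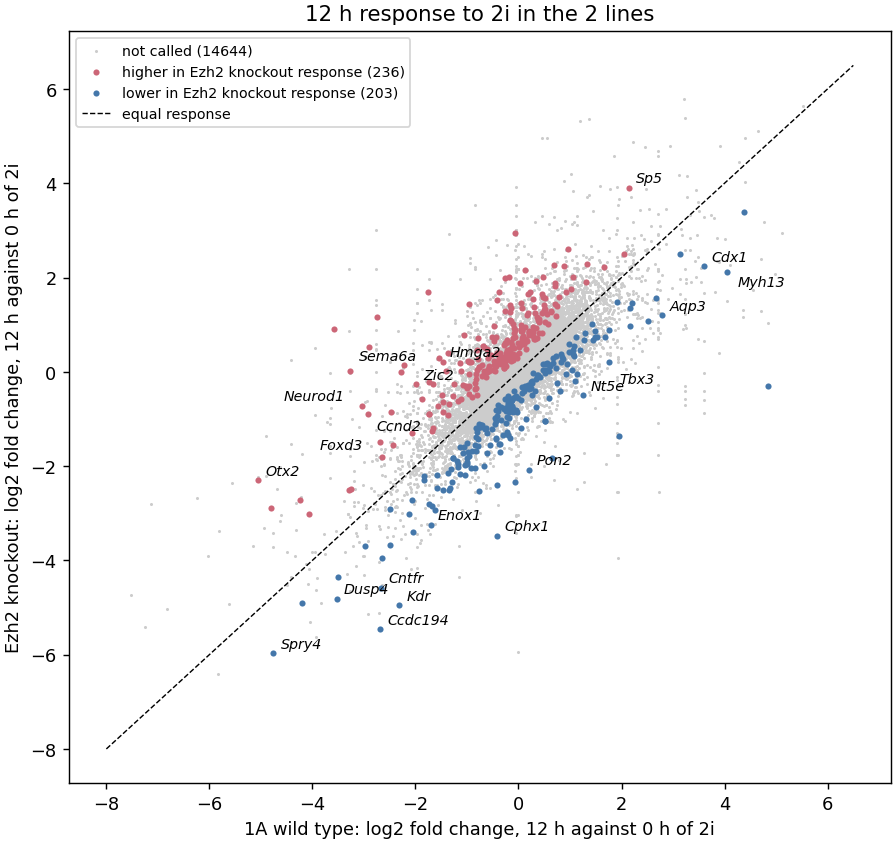
Log2 fold change after 12 h of 2i in 1A wild type (x axis) against Ezh2 knockout (y axis), 1 point per gene tested, with the 236 genes higher and 203 lower in the knockout response in colour and the line of equal response dashed. Otx2 fell by 5.06 in wild type and by 2.30 in knockout, and Sp5 rose by 2.14 and 3.90.

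PRC2 is found mainly at promoters rich in CpG, so the promoters of 2 genes with a positive difference (Foxd3, Neurod1) and 2 with a negative one (Enox1, Cphx1) are shown. They are RefSeq sequences of GRCm38.p6, a build other than that of the counts, and run from 250 bases before to 50 after the transcription start, 5′ to 3′ on the gene's strand. Capitals mark each CG dinucleotide, the letters searched for, which read the same on both strands and do not overlap one another. Of the 93 named genes, 61 had a promoter there.
Foxd3: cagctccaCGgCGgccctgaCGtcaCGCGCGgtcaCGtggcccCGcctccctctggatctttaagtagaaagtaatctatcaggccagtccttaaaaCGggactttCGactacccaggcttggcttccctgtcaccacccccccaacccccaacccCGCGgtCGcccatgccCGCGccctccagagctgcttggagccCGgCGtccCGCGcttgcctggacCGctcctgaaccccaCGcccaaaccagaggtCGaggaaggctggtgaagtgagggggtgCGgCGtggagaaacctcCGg
Neurod1: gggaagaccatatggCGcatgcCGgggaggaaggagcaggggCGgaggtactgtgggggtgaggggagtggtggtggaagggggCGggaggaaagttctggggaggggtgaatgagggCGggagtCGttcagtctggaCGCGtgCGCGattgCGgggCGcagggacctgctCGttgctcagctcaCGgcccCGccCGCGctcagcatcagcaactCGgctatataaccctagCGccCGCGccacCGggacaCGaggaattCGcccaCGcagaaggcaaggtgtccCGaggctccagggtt
Enox1: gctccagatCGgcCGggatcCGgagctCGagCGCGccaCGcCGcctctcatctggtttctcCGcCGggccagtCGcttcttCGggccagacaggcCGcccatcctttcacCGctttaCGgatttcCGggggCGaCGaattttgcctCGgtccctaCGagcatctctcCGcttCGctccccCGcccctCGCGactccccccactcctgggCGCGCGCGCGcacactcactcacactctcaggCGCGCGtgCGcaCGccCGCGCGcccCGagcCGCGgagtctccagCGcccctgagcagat
Cphx1: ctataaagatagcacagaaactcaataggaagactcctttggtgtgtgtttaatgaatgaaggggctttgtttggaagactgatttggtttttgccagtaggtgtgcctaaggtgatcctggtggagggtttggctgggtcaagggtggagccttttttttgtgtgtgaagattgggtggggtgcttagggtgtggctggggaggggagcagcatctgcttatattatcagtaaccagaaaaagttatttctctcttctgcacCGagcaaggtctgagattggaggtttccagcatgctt
The Foxd3 promoter (chr4:99656049-99656348, plus strand) held 25 CG, that of Neurod1 (chr2:79456587-79456886, minus strand) 26, that of Enox1 (chr14:77156513-77156812, plus strand) 42 and that of Cphx1 (chr14:25942294-25942593, plus strand) 1. At least 1 CG was in 94.2% of the 27025 promoters of the table, and their median was 7. Among tested genes, 75.8% had a promoter in the table, of which 99.4% held a CG, and their median was 20. Of these 4, Enox1 had the most CG and Cphx1 the fewest, and both had a negative difference. The 4 promoters were picked from the 61 with no stated rule, so they cannot show whether CG goes with direction. Promoters were in the table for 78.4% of the higher and 77.3% of the lower genes. Because the others were missing, a comparison over all called genes is not reported here.

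Genes of the formative and primed states, which cells switch on as they leave the naive state, held the most called members of any list. Of 21 tested, 8 were higher and 3 lower in the difference of responses, with a median of 0.61 against 0.0057 over all genes. In wild type alone 17 members fell (median -1.88), and in knockout 18 fell (median -2.21). At 0 h 10 of the 21 were lower in knockout and 5 higher. Beside the counts of this and the other lists, 1.56% of all genes tested were called higher and 1.35% lower in the difference of responses. Of all genes, 20.8% fell in wild type and 23.9% in knockout, and at 0 h 11.9% were higher and 10.9% lower in knockout.

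Otx2 (chromosome 14, 48894238 to 48905101), a homeobox factor that drives the exit from naive pluripotency, was at 28.4, 22.7 and 24.7 CPM in wild type at 0 h and at 0.947, 0.961 and 0.203 CPM at 12 h. Without Ezh2 it was at 58.5, 55.7 and 56.6 CPM at 0 h and at 12.1, 12.2 and 9.93 CPM at 12 h. The lines did not overlap at either time, and at 12 h the knockout libraries were above those of wild type at 12 h but below those of wild type at 0 h. Otx2 fell in both lines, by 5.06 in wild type and by 2.30 in knockout, a difference of 2.76 ± 0.45 (adjusted p = 9.42e-07) on top of a 0 h difference of 1.17 ± 0.14. At 12 h the line difference had grown to 3.92 ± 0.43 (adjusted p = 3.51e-15).

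Zic2 (chromosome 14, 122712796 to 122717740), a zinc-finger factor at enhancers of the primed state, started level. It was at 34.8, 35.8 and 35.1 CPM in wild type and at 36.3, 35.7 and 31.3 CPM in knockout at 0 h, where the ranges overlapped. At 12 h it was at 10.6, 6.89 and 9.15 CPM in wild type and at 26.5, 28.6 and 31.5 CPM in knockout, without overlap. Zic2 fell by 1.99 in wild type and by 0.26 in knockout, a difference of 1.73 ± 0.17 (adjusted p = 2.35e-10).

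Foxd3 (chromosome 4, 99544536 to 99546908), a forkhead factor needed for the passage from naive to primed pluripotency with 25 CG in its promoter, fell in both lines from unequal levels. Wild type went from 84.2, 87.6 and 96.1 CPM to 12.1, 14.6 and 14.6 CPM, and knockout from 155, 164 and 159.9 CPM to 56.7, 54.4 and 59.7 CPM. Each knockout library was above each wild-type library at the same time. The changes were -2.69 ± 0.11 and -1.49 ± 0.09, a difference of 1.21 ± 0.15 (adjusted p = 9.03e-08).

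Of the other called members, Pou3f1, Sall2, Sox4, Ncam1 and Cldn6 were chosen for mention after their values were seen. Pou3f1, the POU factor Oct6 of the primed state, went from 147 ± 8.54 to 8.87 ± 0.777 CPM in wild type (mean ± SD, n = 3) and from 49.9 ± 2.73 to 6.1 ± 0.438 CPM in knockout, a difference of 1.04 ± 0.23 (adjusted p = 0.00588). It was thus lower in knockout at both times, and the smaller fall started from a lower level. Sall2, a zinc-finger factor, was at 0 h at 21 ± 4.5 CPM in wild type and 7.41 ± 1.19 CPM in knockout (difference 1.31 ± 0.29, adjusted p = 0.00458), and Sox4, a high-mobility-group factor, at 53.7 ± 3.85 CPM in wild type and 42 ± 1.98 CPM in knockout (0.85 ± 0.20, adjusted p = 0.00723). The adhesion gene Ncam1, at 8.77 ± 1.09 CPM in wild type and 6.55 ± 0.495 CPM in knockout, was higher too (0.79 ± 0.24, adjusted p = 0.0493). Grhl2, a grainyhead factor of epithelial genes, fell from 101–121 to 31.3–34.4 CPM in wild type and from 79.8–84.8 to 11.3–12.3 CPM in knockout (-1.05 ± 0.17, adjusted p = 4.11e-05). The tight-junction gene Cldn6, at 0 h at 88.9 ± 5.08 CPM in wild type and 65.9 ± 2.9 CPM in knockout, was lower too (-0.51 ± 0.15, adjusted p = 0.0426). In fits without 1 library the calls of Ncam1 and Cldn6 ended in 9 of 12 each (adjusted p up to 0.160 and 0.141), and those of Pou3f1, Sall2 and Sox4 ended in none. The call of Ncam1 also ended without a filter (adjusted p = 0.121), with a mean of at least 1 CPM (0.0530), with a replicate block (0.0529) and in the RUV-normalized values (0.0584). That of Cldn6 ended without a filter (adjusted p = 0.132) and in the RUV-normalized values (0.0717), and that of Pou3f1 in the latter alone (0.0534). Dnmt3a and Dnmt3l are the remaining called members.

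**Figure D2:**
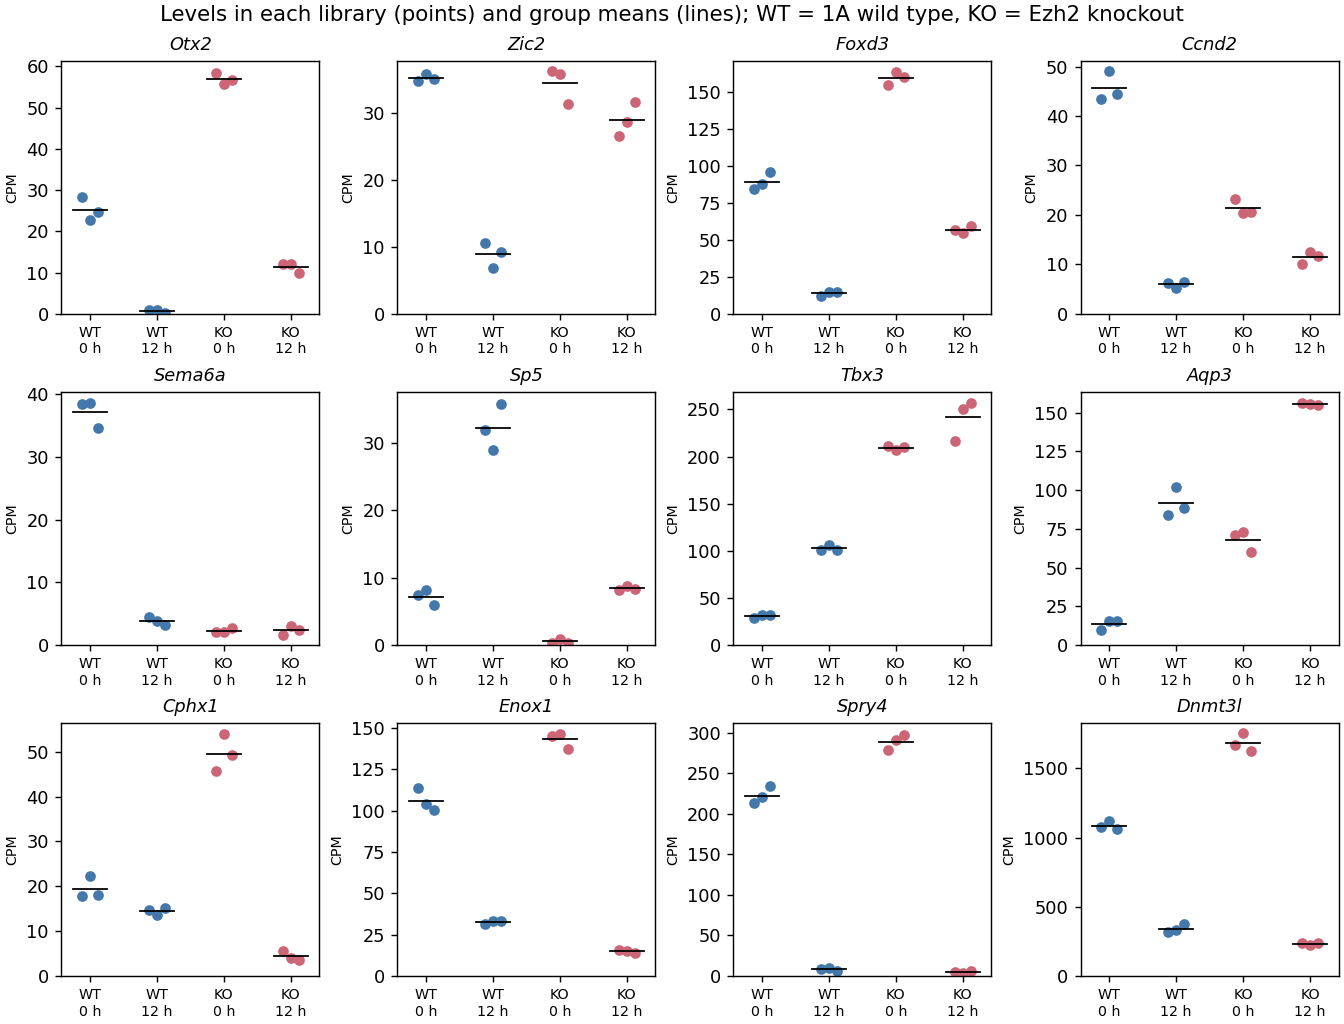
Level of 12 named genes in each of the 12 libraries (points, CPM on linear axes starting at 0) and group means (lines), in 1A wild type (WT) and Ezh2 knockout (KO) at 0 and 12 h of 2i. Otx2, Zic2 and Foxd3 were higher in knockout at 12 h, Enox1 and Cphx1 went below wild type, and Sema6a was already at 2.04 to 2.78 CPM in knockout at 0 h.

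The de novo DNA methyltransferase Dnmt3a and its cofactor Dnmt3l, both known to fall in 2i, differed in opposite directions. Dnmt3a went from 676, 700.0 and 713 CPM to 71.2, 71.3 and 78.5 CPM in wild type and from 485, 477 and 486 CPM to 75.9, 82.6 and 101 CPM in knockout. The knockout range at 12 h overlapped that of wild type, while at 0 h the knockout libraries were lower. Its fall was smaller in knockout (0.76 ± 0.14, adjusted p = 4.84e-04). Dnmt3l showed the opposite, with 1079, 1118 and 1062 CPM at 0 h and 319, 330.1 and 375 CPM at 12 h in wild type. In knockout it was at 1670.0, 1752 and 1628 CPM at 0 h and at 239, 227 and 239 CPM at 12 h, so that it was above wild type before 2i and below it after 12 h, without overlap at either time. Its difference was -1.17 ± 0.16 (adjusted p = 1.21e-06). The related enzyme gene Dnmt3b, named after its values were seen, was at 0 h at 982 ± 49.8 CPM in wild type and 621 ± 20.1 CPM in knockout and fell in both lines, with a difference of 0.004 ± 0.15 that was not called. Of 15 genes for DNA methylation and demethylation, 1 was higher and 2 lower (median -0.01). The third was Uhrf2, a binder of modified cytosines, at 0 h at 35.8 ± 3.22 CPM in wild type and 46 ± 3.15 CPM in knockout (-0.44 ± 0.12, adjusted p = 0.0195), whose call ended in 4 of 12 fits without 1 library (adjusted p up to 0.0826) and without a filter on low counts (adjusted p = 0.354).

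Most feedback inhibitors of ERK signalling fell in both lines, and for 3 of 16 the difference was called lower and for none higher (median -0.10). Over all genes tested, 1.35% were called lower. In wild type 14 of the 16 fell, and in knockout 15 fell. Spry4, a Sprouty inhibitor of receptor signalling, went from 213, 221 and 234 CPM to 8.05, 9.93 and 6.3 CPM in wild type. In knockout it went from 279, 291 and 297 CPM to 4.49, 3.75 and 6.08 CPM, so the knockout started above wild type and ended below it. The difference was -1.21 ± 0.21 (adjusted p = 1.83e-04).

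The ERK phosphatase genes Dusp4 and Dusp6 were the other called inhibitors. Dusp4 was at 5.52, 5.93 and 3.66 CPM in wild type and at 1.07, 1.61 and 1.44 CPM in knockout at 12 h, after 57.4, 61.7 and 58.5 CPM and 37.8, 37.9 and 41.6 CPM at 0 h. It was lower in knockout at both times (difference -1.28 ± 0.31, adjusted p = 0.0073). Dusp6 overlapped between the lines at 0 h, at 178–208 CPM and 190.4–209 CPM, and no longer at 12 h, at 9.93–10.9 CPM and 6.08–7.36 CPM (difference -0.71 ± 0.18, adjusted p = 0.0142). In the authors' RUV-normalized values these calls ended, at adjusted p-values of 0.216 for Spry4, 0.295 for Dusp4 and 0.346 for Dusp6. That of Dusp6 also ended without a filter on low counts (adjusted p = 0.0802) and without replicate 2 of knockout at 12 h (adjusted p = 0.0609) or replicate 1 of wild type at 12 h (adjusted p = 0.064).

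Among 18 transcription factors induced by ERK, such as Egr1, Fos and Myc, 1 was called, Mycn, which fell less in knockout (median of the list 0.14). Mycn was at 478–524 CPM in wild type and 229–246 CPM in knockout at 0 h, and at 192–203 CPM and 113–146 CPM at 12 h (difference 0.45 ± 0.12, adjusted p = 0.0302). It was lower in knockout at both times. Its call ended in 7 of 12 fits without 1 library, at adjusted p-values up to 0.158, and without a filter (adjusted p = 0.109). None of 16 FGF ligands and receptors was called by edgeR or by DESeq2, and 3 had an unadjusted p under 0.05, against 14.7% of all genes. Fgf4, the ligand that sustains ERK signalling in these cells, was at 0 h at 252 ± 9.35 CPM in wild type and 329.8 ± 9.56 CPM in knockout, with a difference of 0.23 ± 0.10 (adjusted p = 0.262).

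Of 22 naive pluripotency genes tested, none was called higher and 3 lower in the difference of responses (median -0.06), and 9 had an unadjusted p under 0.05. In all genes tested, 14.7% had such a p and 1.35% were called lower. At 0 h 13 of the 22 were higher and 1 lower in knockout, against 11.9% and 10.9% of all genes. Tbx3 (chromosome 5, 119808600 to 119822789), a T-box factor of the naive network, rose from 28.6, 31.5 and 31.5 CPM to 101, 106 and 101 CPM in wild type. In knockout it was at 211, 206 and 210.0 CPM at 0 h and at 216, 251 and 257 CPM at 12 h, above every wild-type library of either time. The change was 1.75 ± 0.11 in wild type and 0.21 ± 0.10 in knockout (adjusted p = 0.074, not called), a difference of -1.55 ± 0.15 (adjusted p = 1.94e-10).

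Esrrb, an orphan nuclear receptor of the naive state, likewise started higher in knockout. It rose from 362–424 CPM to 561–615 CPM in wild type and was at 578–624 CPM and then 611–663 CPM in knockout, a difference of -0.51 ± 0.14 (adjusted p = 0.0243). Its call ended in 5 of 12 fits without 1 library (adjusted p up to 0.0727) and in the RUV-normalized values (adjusted p = 0.0601). Gbx2, a homeobox gene that answers to LIF and STAT3, fell in both lines, from overlapping 0 h ranges of 143–164 and 155–164 CPM to 50.8, 51.2 and 55.3 CPM in wild type and 34.4, 30.0 and 40.3 CPM in knockout. Its difference of -0.62 ± 0.14 (adjusted p = 0.00821) was not called in the RUV-normalized values (adjusted p = 0.279). Nanog, the naive homeobox factor, rose in both lines from 0 h levels of 226 ± 2.59 CPM in wild type and 504 ± 11.2 CPM in knockout, with a difference of -0.37 ± 0.12 that was not called (adjusted p = 0.0693). It was called with DESeq2 (adjusted p = 0.0435), with a mean of at least 1 CPM (0.0494) and without replicate 1 of knockout at 12 h (0.0122). Its adjusted p reached 0.253 in the other fits without 1 library and 0.294 in the other settings. Nanog was named after its values were seen.

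For the LIF and STAT3 list 2 of 15 were lower, Gbx2 and Socs3, the feedback inhibitor of the pathway, at 0 h at 125 ± 5.15 CPM in wild type and 139.5 ± 6.5 CPM in knockout (-0.41 ± 0.10, adjusted p = 0.0103, and adjusted p = 0.326 without a filter).

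Targets of beta-catenin, which CHIR99021 stabilises, changed in both directions, with 2 higher and 2 lower of 21 (median 0.14). Sp5, a zinc-finger factor that answers directly to Wnt, was at 7.4, 8.17 and 5.85 CPM in wild type and at 0.344, 0.89 and 0.308 CPM in knockout at 0 h. At 12 h it was at 31.9, 29 and 35.8 CPM in wild type and at 8.21, 8.67 and 8.33 CPM in knockout. It was lower in knockout at both times without overlap, and the larger knockout rise started near 0, from counts of 2, 7 and 2. The rise was 3.90 ± 0.41 in knockout and 2.14 ± 0.16 in wild type, a difference of 1.76 ± 0.44 (adjusted p = 0.00396).

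Notum, a secreted enzyme that inactivates Wnt ligands, fell in wild type and was not called in knockout. It went from 29.6, 28.6 and 31 CPM to 14.2, 15.1 and 15.7 CPM in wild type, and in knockout from 26.5, 28.6 and 27.1 CPM to 31.4, 29.9 and 35.5 CPM, a change with an adjusted p of 0.0724. The ranges met at 0 h and were apart at 12 h (difference 1.21 ± 0.16, adjusted p = 8.67e-07). Cdx1, a caudal homeobox factor, rose in both lines and was higher in knockout at 0 h, at 8.33–10.8 CPM against 1.78–3.43 CPM, and at 12 h, at 37.3–50.5 CPM against 27.3–37 CPM. Its rise was smaller in knockout (-1.36 ± 0.29, adjusted p = 0.00167). Axin2, a negative regulator of beta-catenin, was at 0 h at 22.9 ± 2.88 CPM in wild type and 31.5 ± 4.08 CPM in knockout, with a difference of -0.69 ± 0.19 (adjusted p = 0.0352), a call that ended in 7 of 12 fits without 1 library (adjusted p up to 0.137).

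**Figure D3:**
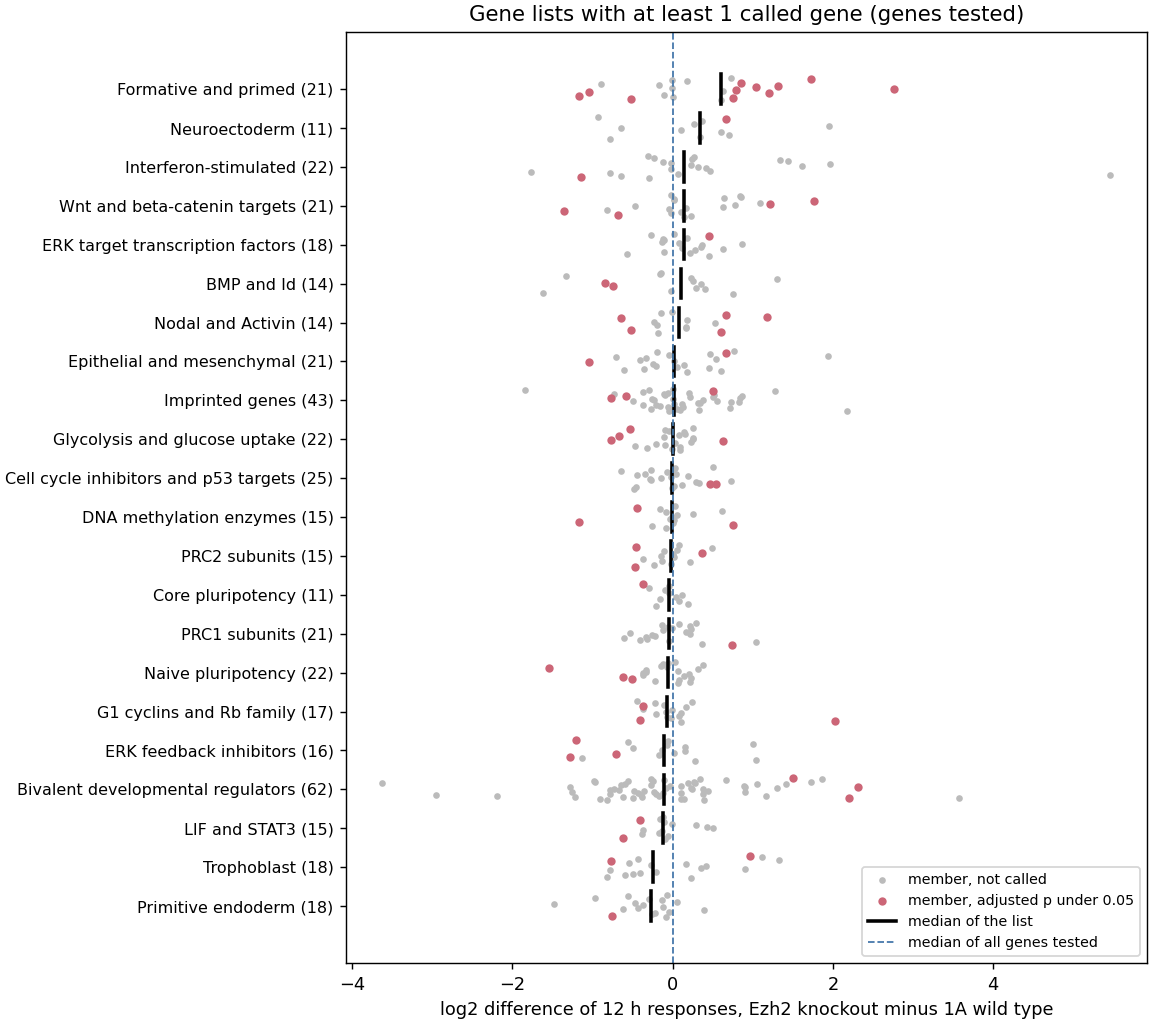
Difference of 12 h responses (Ezh2 knockout minus 1A wild type, log2) of each tested member of the gene lists with at least 1 called gene, with called members in red, list medians as black bars and the median of all genes as a dashed line. The formative and primed list had the highest of these medians, 0.61, with 8 members called higher and 3 lower.

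Genes of Nodal and Activin signalling were called in both directions, with 3 of 14 higher and 2 lower. Skil, a repressor of SMAD activity, started from 232 ± 11 CPM in wild type and 91.8 ± 5.22 CPM in knockout (0.66 ± 0.18, adjusted p = 0.0272). Pcsk6, a protease that processes Nodal, rose in wild type from 45.4–55.2 to 80.0–84.7 CPM and was already at 113–130.0 CPM in knockout at 0 h (-0.64 ± 0.15, adjusted p = 0.00999). Foxh1, the forkhead partner of SMADs, was at 58.8–62.8 CPM in wild type and 47.6–56.3 CPM in knockout at 0 h and fell further in knockout, to 26.6–29.3 CPM against 41.7–47.3 CPM (-0.52 ± 0.13, adjusted p = 0.0172). The receptor gene Acvr2b, chosen after its values were seen, was at 0 h at 90.9 ± 2.88 CPM in wild type and 69.6 ± 4.27 CPM in knockout and was called higher (0.60 ± 0.18, adjusted p = 0.0493). The call of Acvr2b ended in 11 of 12 fits without 1 library (adjusted p up to 0.220), with a mean of at least 1 CPM (0.0585), with a replicate block (0.0555) and on the 4 groups alone (0.0557). Calls ended without 1 library in 9 of 12 fits for Skil (adjusted p up to 0.107) and 2 of 12 for Foxh1 (up to 0.0658). That of Foxh1 also ended without a filter and in the RUV-normalized values (adjusted p = 0.195 and 0.0584).

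Of 14 genes of BMP signalling, 2 were lower and none was called higher, and both encode Id proteins, helix-loop-helix inhibitors induced by BMP. Id3 was at 33.8, 35.1 and 41.7 CPM in wild type and at 18, 19 and 16.5 CPM in knockout at 12 h, after overlapping ranges at 0 h of 37.4–46.4 CPM and 33.7–42.6 CPM. It fell in knockout (-1.08 ± 0.15), was not called in wild type (-0.23 ± 0.14), and the difference was -0.85 ± 0.20 (adjusted p = 0.0104). Id1 was at 76.4, 83.4 and 96.2 CPM and at 57.8, 55.1 and 54.8 CPM at 12 h, after 0 h ranges of 81.4–97.7 CPM and 88.5–109 CPM (-0.75 ± 0.21, adjusted p = 0.0404). The call of Id1 ended in 8 of 12 fits without 1 library (adjusted p up to 0.108), in the RUV-normalized values (adjusted p = 0.177) and with DESeq2 (adjusted p = 0.0511).

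Subunits of PRC2 itself were called in 3 of 15 cases, against 2.91% of all genes. Aebp2, an accessory subunit, was higher in knockout at 0 h, at 235–247 CPM against 139–154 CPM, and fell in knockout to 157–173 CPM while wild type stood at 133–145 CPM (-0.47 ± 0.11, adjusted p = 0.00698). Rbbp7, a histone-binding subunit, rose in wild type from 471, 489 and 432 CPM to 533, 543 and 575 CPM and fell in knockout from 391, 396 and 374 CPM to 336, 331 and 333 CPM. The lines did not overlap at either time, and the difference was -0.46 ± 0.11 (adjusted p = 0.00803). Mtf2, which brings PRC2 to CpG islands, rose more in knockout, from 339–375 CPM in wild type and 357–378 CPM in knockout (0.36 ± 0.10, adjusted p = 0.0251), but its call ended in 8 of 12 fits without 1 library (adjusted p up to 0.139). Without a filter on low counts, the calls of all 3 ended (adjusted p = 0.149, 0.111 and 0.256). Ezh1, a non-called member named after its values were seen, was at 0 h at 24 ± 1.06 CPM in wild type and 26.9 ± 2.15 CPM in knockout, with a difference of -0.37 ± 0.17 (adjusted p = 0.275). Of 21 subunits of PRC1, the complex that ubiquitinates histone H2A, 1 was called higher, Bmi1, at 0 h at 7.18 ± 0.758 CPM in wild type and 7.46 ± 0.375 CPM in knockout (0.74 ± 0.21, adjusted p = 0.0352), with a call that ended in 8 of 12 fits without 1 library (adjusted p up to 0.2), without a filter (adjusted p = 0.164) and on the 4 groups alone (adjusted p = 0.124).

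Bivalent developmental regulators, which carry activating and repressing histone marks in stem cells and are classical PRC2 targets, had 3 of 62 called higher and none called lower. Of all genes 1.56% were called higher, and the median of the list was -0.11. At 0 h 22 of the 62 were higher and 5 lower in knockout, against 11.9% and 10.9% of all genes. Neurod1 (chromosome 2, 79282981 to 79286980), a helix-loop-helix factor of neurons with 26 CG in its promoter, was at 25.2, 21.9 and 23.4 CPM in wild type and at 2.58, 2.93 and 2.31 CPM in knockout at 0 h. It fell in wild type to 3, 3.68 and 1.63 CPM and was at 0.977, 2.32 and 1.28 CPM in knockout at 12 h, where the ranges overlapped. Knockout cells thus started near the level that wild type reached, and the difference was 2.31 ± 0.37 (adjusted p = 3.35e-05). Wt1, a zinc-finger factor of kidney and gonad, was at 23.1–25.2 CPM in wild type and 11.4–13.7 CPM in knockout at 0 h, and at 1.12–1.42 and 1.12–2.32 CPM at 12 h (1.51 ± 0.37, adjusted p = 0.00821, with adjusted p = 0.108 without replicate 2 of knockout at 12 h and 0.158 in the RUV-normalized values). Eya1, a transcriptional cofactor of ear and kidney, was at counts of 2, 1 and 8 in knockout at 0 h and 19, 29 and 15 at 12 h, and at 13, 16 and 6 and 13, 8 and 11 in wild type (2.20 ± 0.59, adjusted p = 0.0141). Its call ended without replicate 1 or 2 of knockout at 0 h or replicate 2 of wild type at 0 h (adjusted p = 0.0519, 0.115 and 0.0748), and on the 4 groups alone (adjusted p = 0.0574).

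None of 29 Hox genes was called by edgeR or by DESeq2, and 2 had an unadjusted p under 0.05, against 14.7% of all genes. Several, such as Hoxa11 (-3.80) and Hoxa9 (3.36), had no usable standard error, so the absence of a call says little for them. At 0 h 9 of the 29 were higher and none lower in knockout, against 11.9% and 10.9% of all genes. By 12 h 14 had risen in knockout and 3 in wild type, against 3947 and 3014 of all 15083 genes. Hoxc13, which patterns the posterior axis, rose in both lines, from 0.592–1.8 to 5.29–5.93 CPM in wild type and from 3.43–3.85 to 15.2–19.4 CPM in knockout, a difference of 0.02 ± 0.45. Methylation-dependent germline genes were not called in any of 27 cases by either tool (3 at an unadjusted p under 0.05), although 20 were higher in knockout at 0 h. The germ cell helicase Ddx4 fell by 1.34 in wild type and by 1.30 in knockout, from 57.8–60.3 CPM and 92.7–94 CPM. None of 11 genes of the 2-cell-like list was called by edgeR or DESeq2, or had an unadjusted p under 0.05, and Zscan4d and Usp17le have near-identical copies and stood at under 1 CPM in all 12 libraries.

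Genes with the largest differences included list members given above (Otx2, Neurod1, Sp5 and Zic2) and genes outside these lists. Sema6a (chromosome 18, 47378321 to 47504267), a transmembrane semaphorin, had the largest positive one under the naming rule. It was at 38.5, 38.6 and 34.6 CPM in wild type at 0 h and at 4.42, 3.84 and 3.25 CPM at 12 h. In knockout it was at 2.06, 2.04 and 2.78 CPM at 0 h and at 1.56, 2.95 and 2.4 CPM at 12 h, below every wild-type library. It fell in wild type (-3.26 ± 0.25) and did not move past the test in knockout (0.02 ± 0.35), a difference of 3.28 ± 0.43 (adjusted p = 5.66e-07). At 12 h the lines differed by -0.74 ± 0.32 (adjusted p = 0.084, not called), against -4.02 ± 0.29 at 0 h.

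Ccnd2 (chromosome 6, 127102125 to 127131913), cyclin D2, was lower in knockout before 2i and higher after it. Wild type went from 43.4, 49 and 44.5 CPM to 6.31, 5.28 and 6.51 CPM, and knockout from 23.2, 20.4 and 20.7 CPM to 10.2, 12.5 and 11.7 CPM, with no overlap between the lines at either time. The difference was 2.02 ± 0.20 (adjusted p = 2.58e-10). Hmga2, a chromatin protein of early embryos, fell in wild type from 11.1, 13.2 and 10.2 CPM to 5.36, 3.2 and 3.86 CPM and was at 26.5, 19.2 and 23.6 CPM and 24.9, 29.2 and 25.1 CPM in knockout. It was above wild type at both times (1.68 ± 0.27, adjusted p = 2.91e-05).

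Other genes with a positive difference were lower in knockout than in wild type at 0 h. Sdc2, the proteoglycan syndecan 2, rose from 2.41, 2.93 and 3.7 CPM to 18.9, 17.4 and 19.4 CPM in knockout and from 6.66, 6.04 and 7.63 CPM to 10.1, 13 and 16.7 CPM in wild type (1.64 ± 0.22, adjusted p = 1.05e-06). Nefl, a neurofilament subunit, was at 26.7–31.6 CPM in knockout against 60.3–65.4 CPM in wild type at 0 h, and at 82.8–93 against 83.8–96.4 CPM at 12 h (1.11 ± 0.11, adjusted p = 8.08e-10). Pls3, an actin-bundling protein, went from 16.7–21.3 to 54–60.7 CPM in knockout and from 35.3–41.2 to 50.8–54.9 CPM in wild type (1.20 ± 0.15, adjusted p = 2.12e-07). Smarca1, a chromatin remodeller of the ISWI family, rose in knockout from 2.16–2.93 to 6.06–9.13 CPM and was not called in wild type, at 9.96–11.7 and 6.57–10.6 CPM, a difference of 1.95 ± 0.39 (adjusted p = 8.92e-04). Tfap2c, an AP-2 factor of trophoblast and germ cells, went from 20.8–23.4 to 83.7–99.6 CPM in knockout and from 51.4–59.6 to 110.0–122 CPM in wild type (0.97 ± 0.13, adjusted p = 1.18e-06).

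The gene with the largest negative difference under the naming rule was Cphx1 (chromosome 14, 25941983 to 25956798), a homeobox gene active in the early embryo whose promoter held 1 CG. Wild type was at 17.8, 22.2 and 18.1 CPM at 0 h and at 14.8, 13.6 and 15.2 CPM at 12 h. Knockout went from 45.7, 53.9 and 49.2 CPM to 5.47, 4.11 and 3.52 CPM, so that it lay above every wild-type library at 0 h and below every one at 12 h. The difference was -3.06 ± 0.22 (adjusted p = 5.03e-15), and since near-identical copies of Cphx1 exist that may share its reads, its value is uncertain. Duxbl1, another homeobox gene with close copies, started at 5.34 ± 1.5 CPM in wild type and 3.43 ± 0.974 CPM in knockout and was lower as well (-1.56 ± 0.43, adjusted p = 0.0258), and its call ended in 4 of 12 fits without 1 library (adjusted p up to 0.136) and in the RUV-normalized values (adjusted p = 0.213).

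Enox1 (chromosome 14, 77393790 to 77959203), an electron transport protein gene of the cell surface with 42 CG in its promoter, fell in both lines and crossed in the same way. It went from 114, 104 and 100.5 CPM to 31.2, 33.1 and 33.5 CPM in wild type and from 145, 147 and 137 CPM to 15.8, 15.2 and 13.8 CPM in knockout. The difference was -1.55 ± 0.14 (adjusted p = 3.03e-11). B3gnt7, a glycosyltransferase gene, overlapped at 0 h, at 134–145 CPM and 139.8–145 CPM, and was at 80.9, 74.6 and 78.3 CPM in wild type and 30.0, 36.3 and 38.1 CPM in knockout at 12 h (-1.20 ± 0.14, adjusted p = 5.28e-08). Cntfr, a receptor subunit for ciliary neurotrophic factor, fell from 37.2–43.9 to 5.69–7.1 CPM in wild type and from 52.3–60.4 to 1.76–2.95 CPM in knockout (-1.91 ± 0.27, adjusted p = 2.08e-06). Pon2, a paraoxonase, fell in knockout from 8.94–9.92 to 1.6–2.93 CPM and was not called in wild type, at 2.61–4.83 and 3.25–4.16 CPM (-2.28 ± 0.39, adjusted p = 8.46e-05).

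Among genes with a negative difference were some that rose in wild type. Aqp3 (chromosome 4, 41092724 to 41098183), a channel for water and glycerol, went from 9.47, 15.7 and 15.3 CPM to 84.2, 102 and 88.6 CPM in wild type and from 71, 72.8 and 60.1 CPM to 156, 156 and 155 CPM in knockout. It was higher in knockout at both times, and its rise was smaller there (-1.60 ± 0.14, adjusted p = 4.06e-12). Nt5e, the ectonucleotidase CD73, rose in wild type from 4, 5.23 and 2.54 CPM to 9.15, 9.13 and 11.4 CPM and was at 4.3, 2.93 and 3.55 CPM and 2.05, 2.68 and 2.88 CPM in knockout (-1.76 ± 0.31, adjusted p = 2.11e-04). Its ranges overlapped at 0 h and were apart at 12 h. Myh13, a muscle myosin heavy chain, rose from 0.49–2.54 to 22.6–23.4 CPM in wild type and from 2.04–4.01 to 11.5–13.8 CPM in knockout (-1.93 ± 0.42, adjusted p = 0.00225). Apoe, a lipid carrier on the primitive endoderm list, rose from 584, 627 and 559 CPM to 1658, 1588 and 1698 CPM in wild type and from 565, 578 and 546 CPM to 1087, 852 and 861 CPM in knockout (-0.75 ± 0.16, adjusted p = 0.00298). Apoe was the sole member called of 18 on that list, whose median was -0.27.

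Some of the largest fitted differences rest on few reads. Ccdc194, a coiled-coil gene, had counts of 0, 3 and 2 in knockout at 12 h against 13, 13 and 7 in wild type, and 47, 62 and 69 and 60, 92 and 51 at 0 h (-2.78 ± 0.83, adjusted p = 0.0139). Its call ended without replicate 1 of knockout at 12 h (adjusted p = 0.0654) and in the RUV-normalized values (adjusted p = 0.103). Kdr, a receptor for VEGF, had counts of 1, 0 and 5 in knockout and 6, 6 and 3 in wild type at 12 h, and 46, 52 and 50 and 29, 25 and 19 at 0 h (-2.63 ± 0.76, adjusted p = 0.0218), a call that ended in 4 of 12 fits without 1 library (adjusted p up to 0.136) and on the 4 groups alone (adjusted p = 0.0565). Hif3a, a hypoxia-inducible factor, was at 2.95–3.52 CPM in knockout and 6.71–7.73 CPM in wild type at 12 h, and at 17.3–19.4 CPM and 10.9–13.6 CPM at 0 h (-1.77 ± 0.35, adjusted p = 0.00108).

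Lineage lists other than the formative one held few called members. Of 18 trophoblast genes Tfap2c was higher and Peg10, an imprinted gene needed in placenta and at 0 h at 515 ± 31.6 CPM in wild type and 602 ± 15 CPM in knockout, lower (-0.77 ± 0.19, adjusted p = 0.012). Of 11 neuroectoderm genes Vim, an intermediate filament of neural and mesenchymal cells, was higher (0.66 ± 0.13, adjusted p = 0.00114), changing from 91–94.2 to 142–162 CPM in knockout and not called in wild type, at 99.8–103 and 101–116 CPM. Vim and Grhl2 were also the called members among 21 genes of the epithelial and mesenchymal states, 1 higher and 1 lower. None of 9 mesendoderm genes was called (1 at an unadjusted p under 0.05, none by DESeq2), and neither were 12 fibroblast genes (5 and none) or 21 contractile and YAP target genes (7 and none). Over all genes tested, 14.7% had such an unadjusted p.

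Of 43 imprinted genes 1 was higher and 2 lower. Peg10 was one of the lower genes. The other was Rian, a noncoding RNA of the Dlk1 and Meg3 domain. It was at 118–124 CPM in wild type and 25.9–32.9 CPM in knockout at 12 h after 135–149 and 46.3–53.8 CPM at 0 h (-0.59 ± 0.17, adjusted p = 0.0352). Ube3a, a ubiquitin ligase imprinted in neurons, was at 0 h at 108 ± 5.47 CPM in wild type and 85.1 ± 3.95 CPM in knockout and was called higher (0.51 ± 0.15, adjusted p = 0.0432). Their calls ended in 9 of 12 and 11 of 12 fits without 1 library (adjusted p up to 0.0987 and 0.137). That of Rian also ended without a filter (adjusted p = 0.0575) and in the RUV-normalized values (adjusted p = 0.219). That of Ube3a ended without a filter (adjusted p = 0.0716), with a mean of at least 1 CPM (adjusted p = 0.0508) and with a replicate block, where its adjusted p reached 0.05.

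Cell cycle genes changed singly. Besides Ccnd2, 2 of 17 G1 cyclins and Rb family genes were called, both lower. Ccnd3, cyclin D3, fell from 223–250.2 to 131–146 CPM in wild type and from 487–511 to 199–247 CPM in knockout (-0.40 ± 0.11, adjusted p = 0.0243). The D-type cyclins D2 and D3 thus differed in opposite directions. E2f4, a repressor E2F, started at 305 ± 16.6 CPM in wild type and 331 ± 12.6 CPM in knockout (-0.37 ± 0.09, adjusted p = 0.0106). Of 25 cell cycle inhibitors and p53 targets 2 were higher. Cdkn1a, the inhibitor p21, rose from 27.5, 26.6 and 24.2 CPM to 81.1, 84.4 and 84.8 CPM in wild type and from 17.4, 21 and 20.4 CPM to 93.7, 86.1 and 94 CPM in knockout (0.55 ± 0.11, adjusted p = 0.00115). Cdkn1b, the inhibitor p27, was at 0 h at 30.2 ± 1.62 CPM in wild type and 27.4 ± 0.638 CPM in knockout and was called higher as well (0.46 ± 0.13, adjusted p = 0.0366). Calls ended in 6 of 12 fits without 1 library for Ccnd3 (adjusted p up to 0.0913) and in 10 of 12 for Cdkn1b (up to 0.166). Without a filter, the calls of Ccnd3, Cdkn1b, Cdkn1a and E2f4 ended (adjusted p = 0.267, 0.266, 0.0963 and 0.382). Those of Ccnd3 and Cdkn1b ended on the 4 groups alone (adjusted p = 0.0556 and 0.0631), and that of E2f4 in the RUV-normalized values (adjusted p = 0.0506).

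Among 22 genes of glucose uptake and glycolysis, 1 was higher and 3 lower (median 0.01). The lactate dehydrogenase subunits differed in opposite directions. Ldha fell in wild type from 1009, 1002 and 997 CPM to 739, 769 and 782 CPM and rose in knockout from 629, 632 and 645 CPM to 827, 717 and 692 CPM, which left the lines overlapping at 12 h (0.62 ± 0.13, adjusted p = 0.00263). Ldhb rose in both lines, from 71.2–85.9 to 216–236 CPM in wild type and from 86.5–95.4 to 139–166 CPM in knockout (-0.77 ± 0.15, adjusted p = 0.00103). Pfkp, a phosphofructokinase, fell in knockout from 209–233 to 115–146 CPM and was not called in wild type, at 87.7–91.8 and 77.7–84.9 CPM (-0.68 ± 0.15, adjusted p = 0.007), and the glucose transporter gene Slc2a3, at 0 h at 702 ± 24.2 CPM in wild type and 1114 ± 55.2 CPM in knockout, was lower (-0.53 ± 0.13, adjusted p = 0.00903).

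Broad metabolic lists gave no called member by edgeR: 30 genes of ribosome biogenesis (5 at an unadjusted p under 0.05, none by DESeq2), 22 of the Atf4 and amino acid stress response (2, and 1 by DESeq2), 24 of cholesterol synthesis (2, none) and 26 of oxidative phosphorylation (1, none). Over all genes tested, 14.7% had such an unadjusted p. Asns, asparagine synthetase and an Atf4 target, rose from 327–369 to 884–962 CPM in wild type and from 550.3–566 to 1203–1357 CPM in knockout, a difference of -0.20 ± 0.11 (adjusted p = 0.402). Of 22 interferon-stimulated genes 1 was lower, Ddx58, the RNA sensor RIG-I. It was at 77.1, 68.3 and 77.6 CPM in wild type and at 132, 122 and 124 CPM in knockout at 0 h, without overlap, and at 29.7, 27.7 and 31.9 CPM and 23.9, 21 and 23.9 CPM at 12 h, with knockout lower (-1.14 ± 0.14, adjusted p = 3.02e-07).

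The same knockout response was next compared with those of the other lines of the series, V19 wild type and 1A Eed knockout, which had the same medium and times. Against V19 wild type 184 genes differed (1.22% of genes tested), 92 higher and 92 lower. The count was 96 without a filter on low counts and 103 on its 4 groups alone. It was 115, 102 and 119 without replicate 1, 2 or 3 of knockout at 0 h, 107 without replicate 2 of knockout at 12 h, 116 without replicate 2 of V19 at 0 h, and 114 and 115 without replicate 2 or 3 of V19 at 12 h. This comparison shares the 6 knockout libraries with that against 1A, so values are set side by side. Of the 68 called named genes, 24 were called against V19 as well and 44 were not. Otx2 was at 2.01 ± 0.33 against V19 and 2.76 ± 0.45 against 1A, Zic2 at 1.39 ± 0.16 and 1.73 ± 0.17, and Ccnd2 at 1.75 ± 0.19 and 2.02 ± 0.20, all called in both. Sema6a, Sp5, Notum, Nefl, Foxd3, Pls3, Dnmt3l, Cphx1, Enox1, B3gnt7, Cntfr, Ddx58 and Tbx3 were also called against V19, Enox1 at -1.08 ± 0.14 and Tbx3 at -0.57 ± 0.14. Aqp3 (-0.35 ± 0.12, adjusted p = 0.175), Nt5e (-0.17 ± 0.32, adjusted p = 0.925) and Hmga2 (0.20 ± 0.27, adjusted p = 0.863) were not. Spry4, Dusp4 and Dusp6 were not called against V19 either, at -0.62 ± 0.22, -0.89 ± 0.32 and -0.61 ± 0.19.

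The wild-type lines were compared directly too, a test added after the data were seen that shares the 6 libraries of 1A wild type. Their 12 h responses differed in 18 genes (0.119% of genes tested). Aqp3 rose less in V19 than in 1A (difference -1.25 ± 0.14), as did Tbx3 (-0.98 ± 0.15), and Nt5e was lower (-1.59 ± 0.30). Hmga2, which fell in 1A, was at 0.01 ± 0.23 in V19 (difference 1.49 ± 0.32, adjusted p = 0.0233), and Cphx1 was at -1.42 ± 0.17 in V19 and -0.42 ± 0.15 in 1A (adjusted p of the difference = 0.0405). These 5 genes were picked from the 18 after their values were seen. Otx2 did not differ between them past the test (0.75 ± 0.52, adjusted p = 1).

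**Figure D4:**
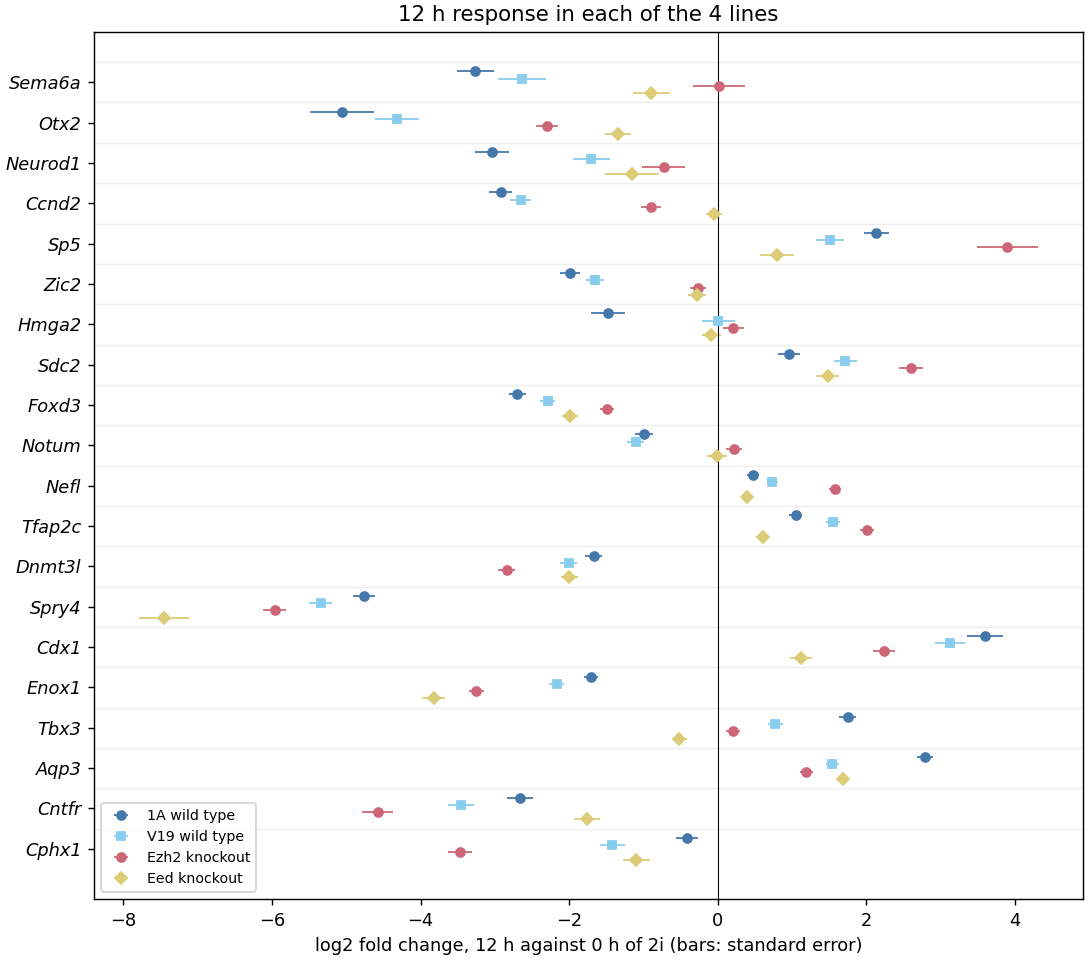
Log2 fold change from 0 to 12 h of 2i (points) ± standard error (bars, from the fit to all libraries) for 20 named genes in 1A wild type, V19 wild type, Ezh2 knockout and Eed knockout, with 3 libraries at each time. Otx2 fell by 5.06 in 1A and by 4.31 in V19, but by 2.30 and 1.34 in the knockouts.

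Set against Eed knockout, a line edited in another core PRC2 subunit, the Ezh2 knockout response differed in 1361 genes (9.02%), 748 higher (4.96%) and 613 lower (4.06%). In that line Eed was at 23.2 ± 3.86 CPM at 0 h, against 422 ± 19.5 CPM in Ezh2 knockout. The Eed knockout response itself differed from 1A wild type in 1696 genes (11.2%). Zic2 changed by -0.28 ± 0.12 in Eed knockout, against -0.26 ± 0.11 in Ezh2 knockout, a difference of 0.02 ± 0.16 (adjusted p = 0.98). Notum (0.23 ± 0.17), Neurod1 (0.43 ± 0.46) and Hmga2 (0.30 ± 0.19) were not called between the knockouts either. Otx2 (-0.96 ± 0.23, adjusted p = 0.00304) and Ccnd2 (-0.85 ± 0.17, adjusted p = 3.52e-04) had the more negative response in Ezh2 knockout.

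Other genes distinguished the knockouts. Sp5 rose by 0.80 ± 0.23 in Eed knockout and by 3.90 ± 0.41 in Ezh2 knockout (difference 3.10 ± 0.47, adjusted p = 2.00e-07). Cphx1 changed by -1.09 ± 0.18 and -3.47 ± 0.16 (difference -2.38 ± 0.24), and Cntfr by -1.76 ± 0.18 and -4.58 ± 0.21 (difference -2.82 ± 0.27). Tfap2c (1.41 ± 0.13), Nefl (1.18 ± 0.11) and Cdkn1a (0.98 ± 0.10) had the more positive response in Ezh2 knockout. Spry4 (1.49 ± 0.37), Esrrb (1.28 ± 0.14) and Tbx3 (0.72 ± 0.14) did so as well. Dnmt3a, at -1.30 ± 0.14, fell more in Ezh2 than in Eed knockout. Over the formative and primed list, 2 of 21 were higher and 9 lower in Ezh2 than in Eed knockout (median -0.37, against 0.02 over all genes), and over the naive list 12 of 22 were higher and 1 lower (median 0.42). Fitted on the 12 libraries of this comparison alone, the count of 1361 became 662, with 277 higher and 385 lower.

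The difference from 1A wild type was followed to later times, where the same 0 h libraries serve as the base. It was called for 1447 genes at 24 h (9.59%), 2568 at 48 h (17.0%) and 1837 at 96 h (12.2%), against 439 at 12 h. Without replicate 1 of 1A wild type at 24 h, 2553 genes were called at that time. On its 4 groups alone, the 48 h comparison called 4637 genes. Otx2 remained higher in the difference, at 3.62 ± 0.40, 2.90 ± 0.32 and 1.92 ± 0.39, with levels at 48 h of 2.27 ± 0.804 CPM in wild type and 37.6 ± 5.35 CPM in knockout. Zic2 was at 1.49 ± 0.16 at 24 h and 0.93 ± 0.15 at 96 h. Sema6a was at 4.57 ± 0.47, 5.35 ± 0.51 and 4.64 ± 0.43, and Tbx3 at -2.26 ± 0.15, -2.44 ± 0.15 and -2.81 ± 0.15.

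Other differences turned or were no longer called by 96 h. Foxd3 was higher at 12 h, at -0.12 ± 0.13 (adjusted p = 0.642) at 24 h, and lower at 48 h (-0.53 ± 0.13) and 96 h (-0.90 ± 0.13), when both lines had come to 92.1 ± 3.1 and 88.5 ± 6.23 CPM. Enox1 was at -3.02 ± 0.18 at 24 h and -0.38 ± 0.14 at 96 h (adjusted p = 0.0662). Spry4 was at -3.10 ± 0.33 at 24 h, -1.62 ± 0.44 at 48 h and -0.24 ± 0.17 at 96 h (adjusted p = 0.424), and Dusp6 at -0.99 ± 0.20, -1.03 ± 0.23 and 0.30 ± 0.15 (adjusted p = 0.225). B3gnt7 went from -1.99 ± 0.15 at 24 h to 0.08 ± 0.14 at 96 h (adjusted p = 0.814), Dnmt3l from -2.06 ± 0.16 to -0.13 ± 0.16 (adjusted p = 0.685), and Gbx2 from -1.23 ± 0.15 to 0.09 ± 0.15 (adjusted p = 0.786). By contrast, Sp5 and Nefl kept a positive difference, at 4.52 ± 0.46 and 2.14 ± 0.11 at 96 h.

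**Figure D5:**
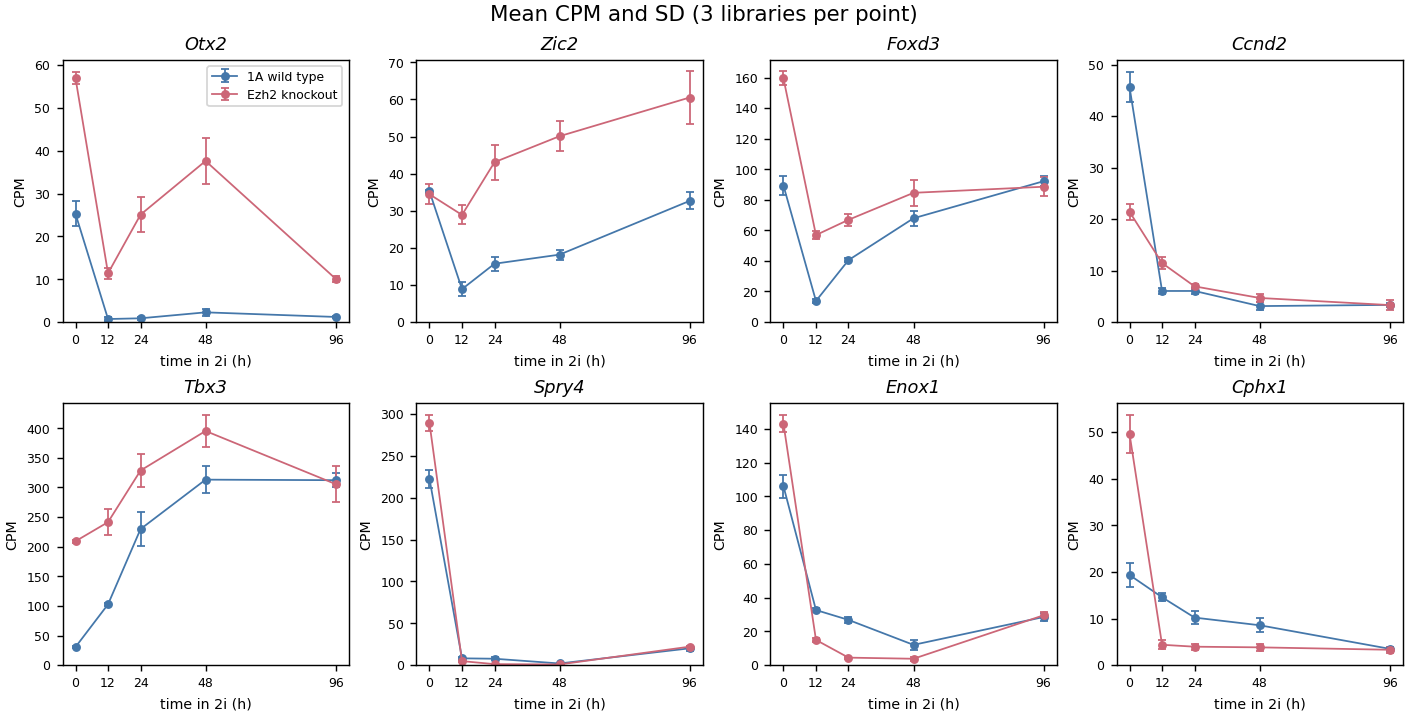
Mean level (CPM, 3 libraries, bars SD) of 8 named genes at 0, 12, 24, 48 and 96 h of 2i in 1A wild type and Ezh2 knockout, on linear axes starting at 0. Otx2 and Zic2 stayed higher in knockout from 12 h on, Foxd3 was at 92.1 and 88.5 CPM at 96 h, and Spry4 was low in both lines from 12 h.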

How the data were processed

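RNA-seq libraries were made from poly(A) RNA with the NEBNext Ultra II kit and sequenced as single reads in a pair of runs that were merged, per the labels' protocols. The authors deposited raw read counts per gene. STAR 2.7.10b, featureCounts 2.0.3, MultiQC 1.14 and DESeq2 are named, with GRCm39, per the submitters' processing notes, and their settings are not given in the sources used here. The strand setting is not given either, so reads of overlapping or antisense genes cannot be told apart. The authors also deposited values normalized by RUV and rounded, treated here as a score for 17754 genes and used only as an alternative (limma 3.58.1, log2 of score + 1). A transformed table was not used, and 0 columns of values had no sample.

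All 60 libraries (20 groups of 3) were fitted together in R 4.3.3 with edgeR 4.0.16, with TMM scaling, genes kept by filterByExpr (minimum count 10, minimum total 15), quasi-likelihood tests and Benjamini-Hochberg adjustment over all 15083 genes tested (threshold 0.05). Of 50559 genes, 15098 had no count. Standard errors are Wald errors from the fit's weights and posterior dispersion. Levels are CPM with TMM factors and principal components used log2 CPM with a prior count of 2. The procedure was tested on simulated counts for the 12 libraries of the contrast, with the same spread in each group. The fit of all 60 libraries was not simulated.

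Named genes are the core PRC2 genes, for each direction the 10 largest called differences among genes with a mean of at least 5 CPM in a group, the 10 with the smallest adjusted p, and up to 4 called members of each of 33 gene lists. Predicted genes, pseudogenes and RIKEN symbols were left out, and a list with no called member could have its 2 most abundant named. Genes outside this rule are marked in the text, and some named by it are not reported here. The contrast and the lists were chosen with earlier results of these data known. The alternatives were RLE scaling, no filter, a mean of at least 1 CPM, a replicate block, the groups of the contrast alone, the RUV values, DESeq2 1.42.0 and leaving out each library. Comparisons of V19 wild type or Eed knockout with 1A wild type were added after the data were seen.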

Additional observations from a re-analysis of the deposited data

Results flagged for a closer look

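Interaction terms found 12 h responses of Ezh2 knockout that differed from those of 1A wild type in 439 genes, of V19 wild type in 184 and of Eed knockout in 1361. At later times Ezh2 knockout differed from 1A wild type in 1447 genes at 24 h, 2568 at 48 h and 1837 at 96 h. The 12 h response differed between Eed knockout and 1A wild type in 1696 genes, and between the wild-type lines in 18.

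Among the named genes, Rbbp7 and Ldha changed in opposite directions in the lines and passed the test in each. Rbbp7, a subunit of PRC2 and of other chromatin complexes, rose by 0.24 ± 0.08 in wild type and changed by -0.22 ± 0.08 in Ezh2 knockout, a difference of -0.46. Ldha, a subunit of lactate dehydrogenase, changed by -0.39 ± 0.09 in wild type and rose by 0.23 ± 0.09 in knockout, a difference of 0.62. With 3 libraries in each group, no outlier test of single values was run.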

How the results depend on the processing

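The count of 439 genes was 438 with RLE scaling, 448 with a mean of at least 1 CPM, 421 with a replicate block, 512 on its own 4 groups, 388 in the RUV-normalized values, 538 with DESeq2 and 295 without a filter (179 higher, 116 lower). The fit with no filter tested 35461 genes, and why its count was lower was not tested. Without 1 library the count of 439 ran from 285 (without wild type at 12 h replicate 1) to 524 (without knockout at 12 h replicate 1). Of the 68 called named genes, 39 kept their call in all 19 alternatives, 47 in all 12 fits without 1 library, and none reversed. Replicate numbers do not pair the samples: deviations from group means correlated at -0.0596 to 0.134 in 18 same-numbered pairs, 1 of them over 0.1, and at -0.132 to 0.0665 in other pairs. The replicate block changed the call of Ube3a alone among the 68.

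Fitted without 1 library, counts ran from 5245 to 5487 for the wild-type response, 6588 to 7372 for the knockout response, 2779 to 2949 for the lines at 0 h, 2912 to 3503 at 12 h, 102 to 207 against V19, 991 to 1747 against Eed knockout, 1035 to 2553 at 24 h, 1910 to 2450 at 48 h and 1461 to 1704 at 96 h. Against V19 the count was 96 without a filter and 103 on the groups alone. On the groups alone it was 662 against Eed knockout and 4637 at 48 h. The causes of these shifts were not tested. Between 3990421 and 11065948 reads a library limit genes of few counts, such as Kdr and Ccdc194.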
